A study of Mus musculus with 8 samples.

Results

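The 8 fasted livers of this study carry animal numbers that fall into a high series, over 800, and a low series, under 200, and the comparison here was between these series, with genotype held as a block. All 8 samples of the study were members: mice 856 and 869 (wild type, WT) and 830 and 831 (S155A) in the high series, and mice 89 and 123 (WT) and 90 and 118 (S155A) in the low series. All were 4-month-old female mice on a C57BL/6J background that were fed chow and then fasted overnight. The S155A mice carry a whole-body knock-in, made with CRISPR-Cas9 and kept as a line from an edited founder, in which a serine of perilipin 5 (PLIN5), a lipid droplet protein whose phosphorylation at that site the study concerns, is replaced by alanine. The labels do not say what the animal number records, so birth cohort, cage, day and hour of harvest, length of fast and RNA extraction cannot be told apart from the series. Throughout, values are listed in the order of the mice given above.

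A liver keeps time by a loop in which the activators ARNTL (BMAL1), CLOCK and NPAS2 switch on the Per and Cry repressors and the nuclear receptors NR1D1 and NR1D2, which in turn shut off Arntl and Npas2. DBP, TEF and HLF carry the rhythm to output genes through the D-box sequence. Feeding raises insulin, which induces SREBF1 and thereby fatty acid synthesis. Low sterol in the endoplasmic reticulum releases SREBF2, which drives cholesterol synthesis and uptake. Fasting activates PPARa, which drives fatty acid oxidation and lipid droplet proteins. These genes are known to move in liver with the hour of day and with food.

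Poly(A) RNA of each liver was sequenced and deposited as estimated counts per gene. Libraries held between 39709785 and 54540864 counts, with 39709785 to 52309067 in the high series and 48883818 to 54540864 in the low series. Between 17983 and 18228 genes had a count in high mice and between 18380 and 18881 in low mice, ranges that do not overlap. The labels call the cells hepatocytes, and 12 hepatocyte markers summed to between 123347 and 168634 normalised counts (CPM, counts scaled to a common library size). Markers of other liver cells were also present, with macrophage markers summing to between 336 and 734 CPM and sinusoidal endothelial markers to between 275 and 420.3 CPM. On the first principal component (25.5% of the variance) S155A mouse 831 stood at -63.7 and S155A mouse 830 at -33.8, against -6.41 to 27.5 for the other mice. Mouse 831 also held the plasma cell transcripts and mouse 856 the pancreatic transcripts described further on.

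The regulatory sequences that these pathways are read through are shown first, each in a gene of the list it belongs to. Apart from the interferon element in interferon-stimulated genes, most members of the lists lacked the searched letters in this window. They come from RefSeq windows on build GRCm38.p6 that run from 250 bases before to 50 bases after each transcription start, with 27025 gene symbols covered. Capitals mark the matched letters, searched on both strands, and 30 bases on each side are given 5′ to 3′ on the strand of the gene. A match describes the letters only. The D-box TTATGTAA was found in 1.11% of all symbols and in 0 of 13 clock output genes and 1 of 13 core clock genes with a window. The 1 gene was Per3, a repressor of the loop, which has 2 copies between 151 and 205 bases before its start (chr4:151044786-151044900, minus strand).
Per3: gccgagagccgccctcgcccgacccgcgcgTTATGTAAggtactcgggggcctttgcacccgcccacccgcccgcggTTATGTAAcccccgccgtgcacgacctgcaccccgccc
The E-box CACGTG, bound by ARNTL and CLOCK and by SREBF1 among others, was found in 8.09% of all symbols and in 4 of 13 core clock genes (Bhlhe41, Ciart, Cry1 and Per1), 3 of 13 clock output genes and 4 of 18 cholesterol genes. The windows of the repressors Cry1 (chr10:85185079-85185144, minus strand) and Per1 (chr11:69098753-69098818, plus strand, from 1 of the 2 starts listed) are shown.
Cry1: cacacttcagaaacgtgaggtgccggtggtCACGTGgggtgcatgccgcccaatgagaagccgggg
Per1: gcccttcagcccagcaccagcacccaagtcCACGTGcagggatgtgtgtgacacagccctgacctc
The ROR and NR1D1 response element core TAGGTCA was found in 2.97% of all symbols, in 1 of 13 core clock genes (Arntl) and in 2 of 13 output genes (Leo1 and Nfil3). Leo1, a rhythmic liver transcript that encodes a subunit of the PAF1 elongation complex, is shown (chr9:75441431-75441497, plus strand).
Leo1: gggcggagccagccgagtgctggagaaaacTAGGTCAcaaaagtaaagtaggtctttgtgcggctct
The sterol regulatory element core CACCCCAC, through which SREBF2 acts, was found in 3.30% of all symbols, in 2 of 18 cholesterol genes and in 1 of 17 lipogenic genes. The cholesterol genes were Acat2 (chr17:12960869-12960936, minus strand) and Hmgcs1 (chr13:119690185-119690252, plus strand), which encode the first enzymes of the pathway.
Acat2: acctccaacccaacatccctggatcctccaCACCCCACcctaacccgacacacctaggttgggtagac
Hmgcs1: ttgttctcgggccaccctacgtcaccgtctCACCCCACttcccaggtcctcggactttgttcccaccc
The interferon-stimulated response element core, searched as 2 TTTC tetramers 2 bases apart, was found in 3.99% of all symbols, in 19 of 29 interferon-stimulated genes and in 3 of 18 antigen presentation genes. Gbp3, a guanylate-binding GTPase (chr3:142559969-142560043, plus strand), and Isg15, a ubiquitin-like protein (chr4:156200845-156200926, minus strand, with the element on the opposite strand), are shown.
Gbp3: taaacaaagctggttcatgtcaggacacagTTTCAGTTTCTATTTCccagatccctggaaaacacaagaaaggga
Isg15: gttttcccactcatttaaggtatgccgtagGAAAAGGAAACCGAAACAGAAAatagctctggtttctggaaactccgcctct

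Across 15482 genes tested with edgeR's quasi-likelihood test, 0 (0%) passed an adjusted p of 0.05 between series. The smallest adjusted p was 0.0680, shared by 14 genes, and 38 genes were under 0.1, of which 31 were higher and 7 lower in the high series. At an unadjusted p under 0.05, 990 genes (6.39%) were higher and 944 (6.1%) lower in the high series, and scaling by library size alone turned this split to 642 higher and 1286 lower. The 4 high mice lay wholly above the 4 low mice in 514 genes (3.32%) and wholly below in 512 (3.31%). DESeq2 gave an adjusted p under 0.05 to 231 genes (1.62%) as higher and 174 (1.22%) as lower. Its shares here and below are of the 14281 genes to which it gave an adjusted p. Because edgeR passed no gene, the members of each pathway below are described by these counts beside the shares over all genes, and differences are log2 of high over low with standard errors (SE). With 1 mouse left out, the shares at an unadjusted p under 0.05 changed as well. Leaving out each mouse in the listed order gave 4.44%, 7.49%, 4.32%, 5.33%, 6.34%, 7.36%, 4.60% and 4.71% of all genes higher. In the same order, 4.43%, 7.98%, 4.16%, 4.38%, 6.00%, 7.02%, 4.41% and 4.39% were lower. Counts of members without 1 mouse are to be set beside these shares.

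Genes of the circadian clock lay apart between the series, the activators lower and most repressors higher in the high series. Of 17 core clock genes, 8 (Nr1d2, Per3, Bhlhe40, Cry2, Nr1d1, Per1, Ciart and Per2) were higher and 4 (Arntl, Clock, Cry1 and Npas2) lower at an unadjusted p under 0.05, against 6.39% and 6.1% of all genes. The groups did not overlap in 4 of the higher and 3 of the lower genes, and DESeq2 called 5 and 3 of the 17. Their number was between 6 and 9 higher and between 3 and 6 lower when each mouse was left out, and was 5 higher in the 4 WT mice alone, where 3.11% of all genes were higher.

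Among the activators, Arntl (chromosome 7, 113207465 to 113314126) measured 1.81, 4.89, 2.76 and 1.61 CPM in the high series and 15.99, 8.26, 17.5 and 8.57 CPM in the low series, so every high mouse was below every low mouse (log2 difference -2.21 ± 0.40, edgeR adjusted p = 0.115, DESeq2 adjusted p = 1.95e-06). Clock stood at 19.8, 23.2, 23.99 and 19.9 CPM in the high series and 35.7, 44.3, 28.1 and 31.1 CPM in the low series, again without overlap. Its log2 difference was -0.66 ± 0.14, with adjusted p of 0.161 in edgeR and 0.00339 in DESeq2. Npas2, the paralog that can stand in for Clock, ranged over 0.0790 to 1.71 CPM in the high series and 1.44 to 6.68 CPM in the low series, which overlapped (log2 -2.07 ± 0.80).

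The repressors and nuclear receptors lay the other way. Per3 measured 32.6, 15.8, 27.3 and 38.2 CPM in the high series and 2.78, 10.98, 4.25 and 7.96 CPM in the low series, with all high mice above all low mice (log2 2.12 ± 0.43, edgeR adjusted p = 0.159, DESeq2 adjusted p = 0.00757). Per2 measured 70.6, 20.95, 44.5 and 59.9 CPM in the high series and 5.30, 34.96, 6.75 and 23.2 CPM in the low series, and here WT mouse 869 of the high series lay below WT mouse 123 of the low series (log2 1.49 ± 0.61). Ciart, a repressor whose product binds CLOCK and ARNTL, measured 18.2, 1.77, 31.2 and 54.3 CPM in the high series and 0.611, 6.47, 0.495 and 2.34 CPM in the low series (log2 3.14 ± 1.10), and mouse 869 was again within the low range. Per1 had a log2 difference of 0.40. Nr1d2 (43.96 ± 4.09 against 27.5 ± 2.95 CPM, means ± SD, n = 4) shared the lowest edgeR adjusted p (0.0680). Nr1d1, which overlaps Thra on the opposite strand, measured 108, 108, 112 and 61.9 CPM in the high series and 55.7, 66.9, 57.1 and 65.1 CPM in the low series, and S155A mouse 831 alone lay in the low range. Cry1, the late repressor of the loop, was lower in the high series (log2 -0.97 ± 0.23, no overlap) while Cry2 was higher (log2 0.51 ± 0.12, no overlap), and Bhlhe40, a repressor that competes for E-boxes, was higher (log2 1.07 ± 0.23, no overlap).

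Output genes followed the repressor side. Of 15 clock output genes tested, 7 (Dbp, Wee1, Upp2, Nampt, Usp2, Tef and Gys2) were higher and 2 (Leo1 and Lonrf3) lower at an unadjusted p under 0.05, and the lower count was 4 without mouse 123. Dbp, the D-box activator (chromosome 7, 45705088 to 45710203, overlapping Sphk2 on the opposite strand), measured 153, 66.1, 132 and 153 CPM in the high series and 9.70, 24.5, 9.34 and 19.6 CPM in the low series. Its lowest high mouse, 869, was thus well above its highest low mouse, 123 (log2 2.99 ± 0.39, edgeR adjusted p = 0.0680, DESeq2 adjusted p = 2.63e-07). Its relatives Tef and Hlf had log2 differences of 1.09 ± 0.31 and 0.47 ± 0.22 with overlapping groups, and Nfil3, the D-box repressor, -0.63 ± 0.39. Usp2, a deubiquitinase, spanned 16.2 to 86.4 CPM in the high series and 2.17 to 17.6 CPM in the low series. Wee1, a mitotic kinase under clock control, measured 4.60, 1.26, 3.32 and 5.16 CPM in the high series and 0.710, 0.951, 0.534 and 1.21 CPM in the low series without overlap, and Upp2, a uridine phosphorylase, 49.97 to 257 CPM in the high series and 21.1 to 53.2 CPM in the low series. Nampt, which sets NAD+ synthesis, had a log2 difference of 0.67 ± 0.16. Leo1 was lower without overlap (log2 -0.59 ± 0.14). In each of Dbp, Arntl, Per3, Ciart and Usp2, picked after their values were seen, the high mouse nearest the low series was WT mouse 869 and the low mouse nearest the high series was WT mouse 123.

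**Figure D1:**
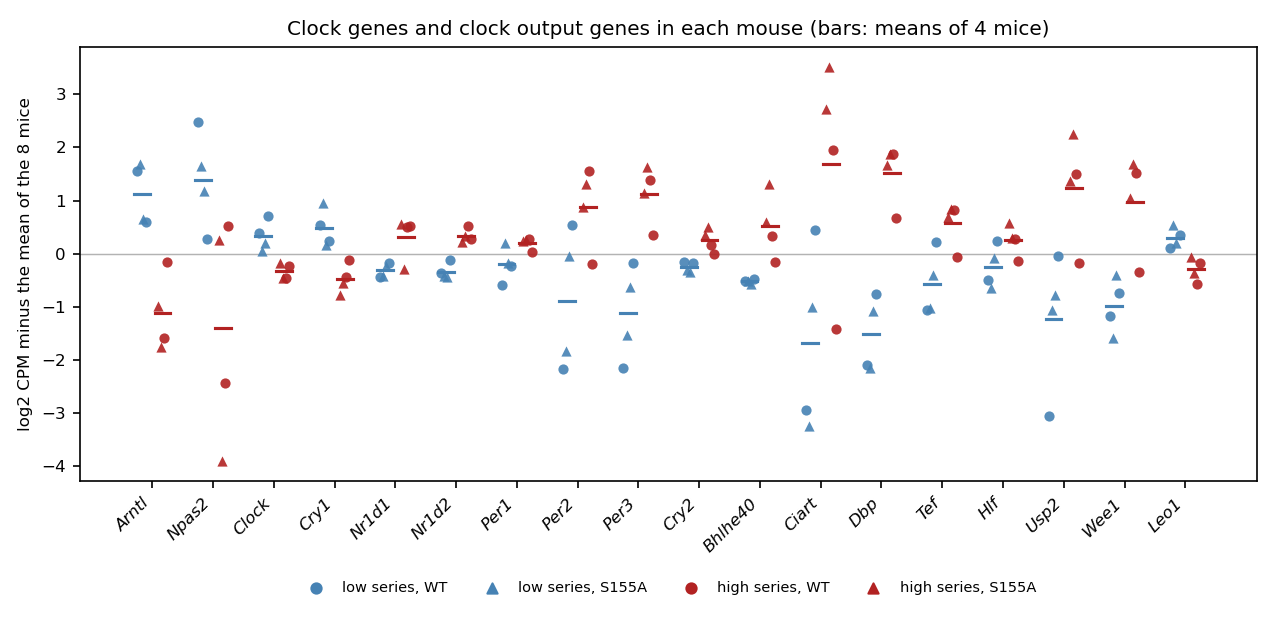
Clock and clock output genes in each mouse, as log2 CPM minus the mean of the 8 mice. Blue marks the low and red the high series, circles WT and triangles S155A mice, and bars are means of 4 mice; Arntl, Clock, Cry1 and Leo1 lie lower and Nr1d2, Per3, Cry2, Bhlhe40, Dbp and Wee1 higher in all 4 high mice.

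Genes of cholesterol synthesis were higher in the high series as a group. Of 26 genes tested, 25 had a log2 difference above 0, with a median of 0.88 (all genes, -0.01), and 22 were higher and 0 lower at an unadjusted p under 0.05 (17 to 23 higher when each mouse was left out, and 1 lower without mouse 869). The groups did not overlap in 14, and DESeq2 called 16 as higher. Within genotypes the median was 0.40 in WT and 1.37 in S155A mice, and 10 genes were higher at an unadjusted p under 0.05 in WT mice alone, where 3.11% of all genes were, and 23 in S155A mice alone, where 10.19% of all genes were. The genes named below were chosen by their small p or as regulators of the pathway.

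On the side of uptake and transport, Vldlr, a lipoprotein receptor outside this list, averaged 30.3 ± 4.07 against 14.7 ± 2.80 CPM (means ± SD, n = 4). Stard4, a cytosolic sterol carrier, measured 44.1, 32.9, 74.2 and 67.1 CPM in the high series and 19.7, 23.6, 18.6 and 21.6 CPM in the low series (log2 1.32 ± 0.21, edgeR adjusted p = 0.0742). For both of these genes all high mice lay above all low mice.

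Among the enzymes of the isoprenoid and sterol steps, Fdps, farnesyl diphosphate synthase, measured 35.4, 23.7, 122 and 90.2 CPM in the high series and 15.7, 15.7, 18.3 and 19.02 CPM in the low series. Idi1, which isomerises the isoprene unit, measured 28.4, 23.02, 101 and 74.4 CPM in the high series and 15.9, 12.8, 16.9 and 16.01 CPM in the low series. Sqle, squalene epoxidase, measured 13.3, 7.43, 57.1 and 42.2 CPM in the high series and 6.47, 4.21, 3.86 and 6.73 CPM in the low series. In all 3 enzymes the low mice were close together and the 2 high S155A mice stood above the 2 high WT mice, an order that not every member of the list had. Fdft1, squalene synthase, overlaps Ctsb on the opposite strand and had a log2 difference of 1.26 ± 0.22 (edgeR adjusted p = 0.0964). The early enzymes had smaller log2 differences, Acat2 by 0.52 ± 0.12 and Hmgcs1 by 0.64 ± 0.26, and Hmgcs1 overlapped between series. Insig1, whose product helps to retain SREBF2 and which is itself its target, measured 69.02, 43, 178 and 142 CPM in the high series and 30.9, 37.3, 28.7 and 26.03 CPM in the low series (log2 1.63 ± 0.36), and Srebf2 differed by 0.57 ± 0.18 with overlap.

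Most members had a larger difference in S155A than in WT mice. In the test of the interaction between series and genotype, 17 of 26 cholesterol genes had an unadjusted p under 0.05, against 10.8% of all genes, and DESeq2 called 12, against 1.95%. None of the 15482 genes passed an adjusted p of 0.05 in edgeR (smallest 0.105). The log2 series difference of Fdps was 0.88 in WT and 2.49 in S155A mice (interaction 1.60 ± 0.30, edgeR adjusted p = 0.222), that of Insig1 0.68 in WT and 2.54 in S155A mice (interaction 1.83 ± 0.32, edgeR adjusted p = 0.222), and that of Acat2 0.41 in WT and 0.63 in S155A mice. Of the 26 genes, 25 had a larger difference in S155A mice. This contrast rests on 2 mice in each series and genotype.

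**Figure D2:**
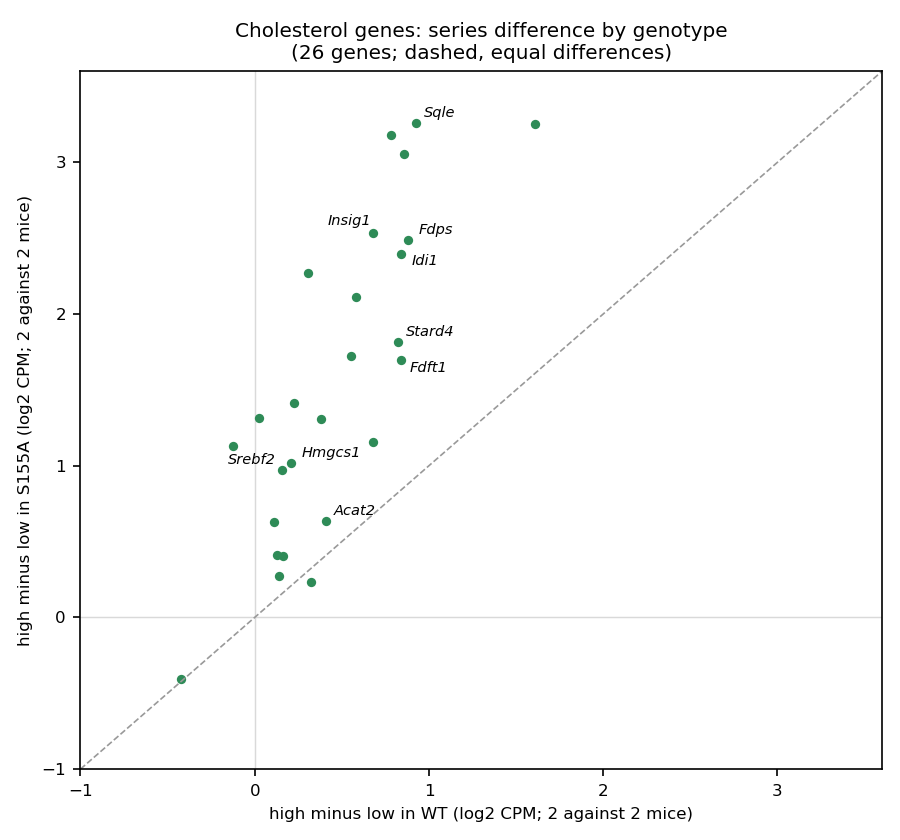
Log2 CPM difference between high and low series in WT mice (x axis) and in S155A mice (y axis), 2 against 2 mice in each, for 26 cholesterol genes. The dashed line marks equal differences and 25 genes lie above it.

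Lipogenic genes, which follow feeding and insulin, had more members higher than lower in the high series. Of 20 lipogenic genes, 8 were higher and 3 lower at an unadjusted p under 0.05 (median log2 0.29), with 5 and 1 not overlapping, and DESeq2 called 4 and 1. Leaving out each mouse gave 6 to 10 higher and 2 to 3 lower. Insig2, whose liver transcript falls on feeding, was among the lower genes at 162, 262, 160.1 and 105 CPM in the high series and 408, 471, 374 and 349.8 CPM in the low series, with every high mouse below every low mouse (log2 -1.25 ± 0.19, edgeR adjusted p = 0.0737).

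Among the synthesis genes, Elovl6, the elongase for palmitate, measured 43.8, 34.2, 41.1 and 44.5 CPM in the high series and 26.6, 25.6, 24.8 and 25.8 CPM in the low series (log2 0.67 ± 0.10, edgeR adjusted p = 0.0742). Srebf1, the insulin-responsive factor, averaged 61.4 ± 11.1 against 36.9 ± 5.66 CPM and Fasn, fatty acid synthase, 192 ± 38.8 against 114 ± 35.2 CPM (means ± SD, n = 4). Srebf1 did not overlap between series, whereas Fasn did. Thrsp, a feeding-responsive lipogenic protein, measured 40.3, 17.5, 51.4 and 100.4 CPM in the high series and 7.28, 21.03, 5.50 and 15.2 CPM in the low series with overlap, and Mid1ip1, which activates acetyl-CoA carboxylase, had a log2 difference of 0.90 ± 0.13 without overlap. Fads1, a desaturase, differed by 0.49 ± 0.12, and Acly, which makes cytosolic acetyl-CoA, by 0.39 ± 0.13. Mlxipl, the glucose-responsive factor ChREBP, differed by 0.17 ± 0.16, and Scd1, the desaturase for oleate, by 0.46 ± 0.53, within its spread. The log2 difference of Scd1 was 1.55 in WT and -0.41 in S155A mice.

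Of 20 insulin and FOXO1 responsive genes, 5 (Trib1, Pik3r1, Grb10 and Foxo1 among them) were higher and 2 (Pdk4 and Irs1) lower at an unadjusted p under 0.05, and 1 was lower without mouse 89. Their median was 0.04 and changed sign with scaling by library size alone (-0.03) and without mouse 830 or mouse 118. Trib1, a pseudokinase, differed by 0.48 ± 0.12 and Pik3r1, a regulatory subunit of the insulin-activated kinase, by 0.79 ± 0.20, both without overlap. Pdk4, which shuts off pyruvate oxidation on fasting, ranged over 7.001 to 26.8 CPM in the high series and 13.7 to 51.1 CPM in the low series with overlap (log2 -1.36 ± 0.44). The 17 gluconeogenic genes had 2 higher and 1 lower at an unadjusted p under 0.05, near the share over all genes, with 1 higher without mouse 856, 830, 831, 89, 90 or 118 and 7 higher without mouse 123. The lower count was 0 without mouse 856, 830 or 90 and 2 without mouse 831 or 118. Within genotypes the median was -0.12 in WT and 0.32 in S155A mice. In WT mice alone 1 was higher and 3 lower, where 3.11% and 2.94% of all genes were. In S155A mice alone 9 were higher and 0 lower, where 10.19% and 9.64% of all genes were. Over all mice Pck1, the first committed enzyme, differed by -0.18 ± 0.22 and G6pc, which releases glucose, by -0.07 ± 0.23, each less than its SE.

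PPARa targets, which include droplet proteins such as Plin2 and Plin5, had more members lower than higher in the high series. Of 50 PPARa targets, 11 were lower and 4 higher at an unadjusted p under 0.05 (median log2 -0.15), 3 and 1 did not overlap, and DESeq2 called 1 as lower. The lower count was 6 without mouse 831 and 7 without mouse 830, and the higher count 1 without mouse 856 and 2 without mouse 831, 89 or 90. Of all genes, 4.38% were lower without mouse 831 and 4.16% without mouse 830. Within genotypes the median was 0.03 in WT and -0.37 in S155A mice. In WT mice alone 5 members were higher and 2 lower at an unadjusted p under 0.05, where 3.11% and 2.94% of all genes were. In S155A mice alone 2 of 49 were higher and 23 lower, where 10.19% and 9.64% of all genes were. The lean to lower values was thus that of the S155A mice. The interaction had an unadjusted p under 0.05 in 17 of 50, against 10.8% of all genes, and DESeq2 called 11, against 1.95%.

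Plin5 measured 194, 183, 276 and 191 CPM in the high series and 194, 254, 387 and 458 CPM in the low series (log2 -0.55 ± 0.17, edgeR adjusted p = 0.277), and mouse 830 of the high series was above the 2 low WT mice. Its difference was -0.24 in WT and -0.87 in S155A mice. Plin2, the main droplet coat protein of hepatocytes, measured 1317, 1391, 1014 and 901 CPM in the high series and 1491, 1368, 1821 and 2146 CPM in the low series and also overlapped. Cidec, which fuses droplets, measured 43.3, 56.8, 40.3 and 36.1 CPM in the high series and 59.97, 118, 68.1 and 131 CPM in the low series without overlap (log2 -1.11 ± 0.27, edgeR adjusted p = 0.194, DESeq2 adjusted p = 0.00317). Hilpda, a lipase inhibitor on droplets, was lower in every high mouse as well (log2 -0.78 ± 0.20). Dgat2, the last enzyme of triglyceride synthesis, lay the other way at 488 ± 88.8 against 295 ± 34 CPM (means ± SD, n = 4), without overlap. In all, 6 of 26 triglyceride synthesis and lipolysis genes were lower and 2 higher at an unadjusted p under 0.05. The lower count was 3 without mouse 831, and the higher count 1 without mouse 89 and 5 without mouse 123.

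Of the other genes the study chose, Ppara had a log2 difference of -0.08 ± 0.11 and Cpt1a, the gate of mitochondrial fatty acid oxidation, of -0.15 ± 0.12, both with overlapping groups. Acot1, an acyl-CoA thioesterase, measured 495, 433, 212 and 165 CPM in the high series and 479, 189, 702 and 579.9 CPM in the low series. It was lower in both high S155A mice than in both low ones, and in WT mice low mouse 123 was below both high mice, so that the difference was 0.62 in WT and -1.77 in S155A mice. Ppargc1a, a coactivator of PPARa, ranged over 5.53 to 8.19 CPM in the high series and 6.08 to 29.5 CPM in the low series (log2 -1.12 ± 0.40). Fgf21, the fasting hormone under PPARa, differed by -0.14 in WT and -1.15 in S155A mice. Irs1, an insulin receptor substrate, measured 32.8, 29.4, 21.6 and 19.5 CPM in the high series and 45.5, 36.8, 24.6 and 23.8 CPM in the low series: within each genotype both high mice were below both low mice (log2 -0.32 ± 0.10, edgeR adjusted p = 0.286). Irs2 measured 11.3, 8.42, 12.9 and 13.6 CPM in the high series and 34.1, 10.2, 7.34 and 6.23 CPM in the low series, with mouse 89 apart from all others. Its difference was -0.11 ± 0.49 over all mice and -0.94 in WT and 0.96 in S155A mice.

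**Figure D3:**
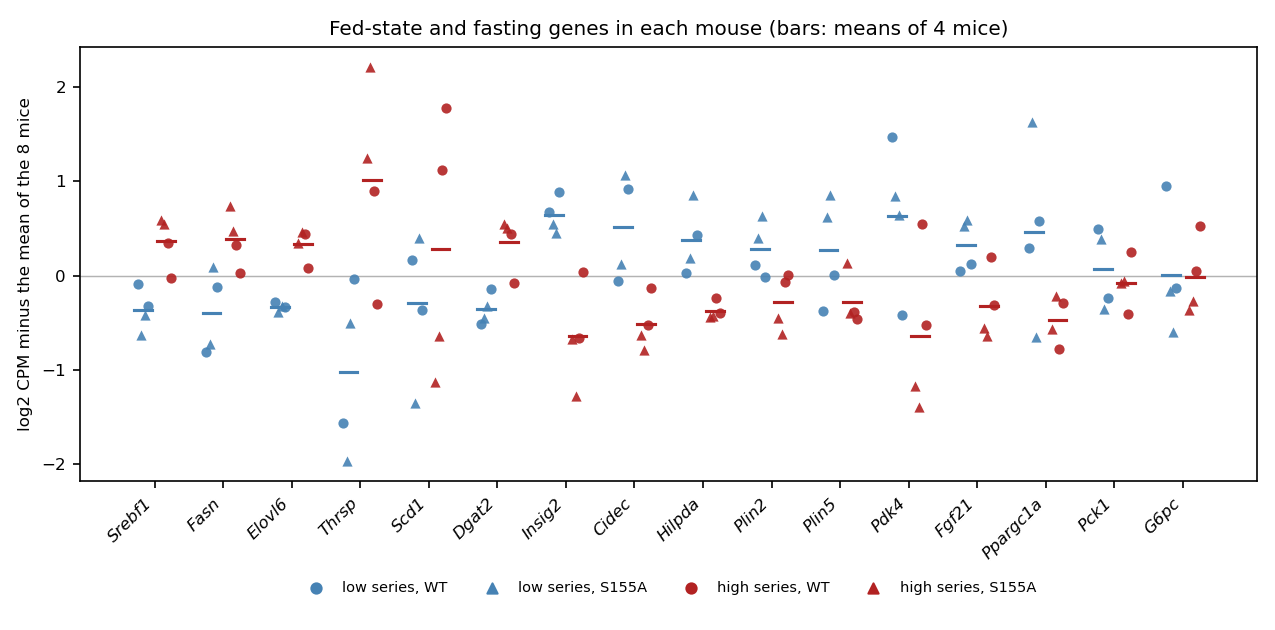
Genes of the fed state and of fasting in each mouse, as log2 CPM minus the mean of the 8 mice, with symbols and bars as in the plot of clock genes. Srebf1, Elovl6 and Dgat2 lie higher and Insig2, Cidec and Hilpda lower in all 4 high mice. Fasn, Thrsp, Scd1, Plin2, Plin5, Pdk4, Ppargc1a, Pck1 and G6pc are among those that overlap.

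Subunits of oxidative phosphorylation encoded in the nucleus had nearly all members above 0 by a small amount. Of 75 subunits, 73 had a log2 difference above 0 with a median of 0.18, 26 were higher and 0 lower at an unadjusted p under 0.05, 13 did not overlap, and DESeq2 called 6. The sum over the list did overlap, at 14368 to 17144 CPM in the high and 12520 to 14630 CPM in the low series, with mouse 869 lowest of the high and mouse 89 lowest of the low mice. The median was 0.20 in each genotype and 0.12 with scaling by library size alone, which moved the median of all genes from -0.01 to -0.07. The count was 11 without mouse 856 or mouse 830 and 16 without mouse 118. Of all genes, 4.44%, 4.32% and 4.71% were higher in these fits. The count was 3 in WT mice alone and 16 in S155A mice alone, against 3.11% and 10.19% of all genes in these 2 comparisons. Ndufa11, a subunit of complex I, averaged 76.9 ± 4.74 against 60.3 ± 4.12 CPM and Atp5o, a subunit of ATP synthase, 221 ± 22.2 against 169 ± 16.3 CPM (means ± SD, n = 4), neither with overlap. Ndufv1, which holds the NADH site, differed by 0.43 ± 0.11 and did overlap, since mouse 869 lay within the low range. The 13 genes of the mitochondrial genome had a median of 0.03.

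Interferon-stimulated genes had more members higher than lower in the high series. Of 42 members, 38 had a log2 difference above 0 (median 0.32), 15 were higher and 0 lower at an unadjusted p under 0.05, 7 did not overlap, and DESeq2 called 4. Their sum overlapped, at 1038 to 1416 CPM in the high and 903 to 1188 CPM in the low series, with low mouse 89 above high mouse 831. The higher count was 6 without mouse 830, 7 without mouse 90, 9 without mouse 123 and 24 without mouse 89, and 1 member was lower without mouse 869. Usp18, which removes ISG15 from proteins, measured 22.3, 24.05, 24.6 and 21.3 CPM in the high series and 13.4, 13.3, 14.9 and 13.7 CPM in the low series (log2 0.74 ± 0.10, edgeR adjusted p = 0.0680). Isg15 averaged 13.8 ± 2.66 against 8.08 ± 1.86 CPM (means ± SD, n = 4). It did not overlap between series, and neither did Gbp3 (log2 0.64 ± 0.17). The paralogs Apol9a and Apol9b, between which reads may be shared, differed by 0.77 ± 0.10 and 0.92 ± 0.13, also without overlap. Of 23 antigen presentation genes, 4 (Psmb10, Tapbp, H2-T22 and Psmb9) were higher at an unadjusted p under 0.05, and 10 without mouse 89. Psmb10, an immunoproteasome subunit, measured 38.4, 25.7, 45.4 and 34.3 CPM in the high series and 21.99, 19.3, 21.2 and 21.4 CPM in the low series.

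Genes for ribosome assembly and for RNA-binding proteins that follow body temperature had more members lower than higher. Of 35 ribosome biogenesis genes, 10 were lower and 0 higher at an unadjusted p under 0.05 (median -0.19, 8 to 12 when each mouse was left out), 6 did not overlap, and DESeq2 called 4. The mean over the list overlapped, with low mouse 89 below high mouse 856. Nop58 and Nop56, core proteins of box C/D snoRNPs, differed by -0.65 ± 0.14 and -0.47 ± 0.12, and Nop56 measured 22.4, 22.3, 20.98 and 21.5 CPM in the high series and 27.7, 24.9, 32.3 and 36.6 CPM in the low series. Tsr1, a factor for the small subunit, differed by -0.54 ± 0.13 and Ppan by -0.75 ± 0.19. Nop58, Nop56 and Tsr1 had every high mouse below every low mouse, and Ppan did not, since mouse 831 lay above mouse 123. The 79 cytosolic ribosomal protein genes had a median of 0.04 with 0 higher and 1 lower at an unadjusted p under 0.05, and 3 were higher without mouse 869 or 89. All 4 temperature genes (Srsf5, Cirbp and Rbm3 among them) were lower at an unadjusted p under 0.05, but not when any 1 mouse was left out. The count was then 2 without mouse 856 or mouse 830 and 3 without any other mouse. Srsf5, Cirbp and Rbm3 overlapped between series. Cirbp, which cold induces, measured 17.5, 22.7, 16.3 and 15.98 CPM in the high series and 32.8, 18.3, 28.4 and 23.5 CPM in the low series, and Rbm3, its relative, 39.98 to 51.1 CPM in the high series and 45.4 to 69.4 CPM in the low series.

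Hepatocytes around the central vein, which respond to Wnt signals, express a set of genes of which 7 of 20 were higher and 1 lower at an unadjusted p under 0.05 (median 0.24). The higher count was 4 without mouse 856, and the lower count was 0 without mouse 830, 831, 90 or 118 and 2 without mouse 869 or 123. Cyp1a2, which oxidises caffeine, averaged 273 ± 31.8 against 195 ± 20.7 CPM and Lect2, a secreted protein, 117 ± 11.5 against 83.7 ± 13.8 CPM (means ± SD, n = 4). Cyp1a2 did not overlap, and Lect2 did, with low mouse 90 just above high mouse 869. Glul, glutamine synthetase of the innermost cells, differed by 0.23 ± 0.10 and the Wnt feedback gene Axin2 by -0.71 ± 0.35. The drug-metabolising Cyp2 and Cyp3 genes under the receptors CAR and PXR had 5 of 26 higher and 0 lower. In WT mice alone 3 were higher and 4 lower, where 3.11% and 2.94% of all genes were. In S155A mice alone 10 of 25 were higher and 0 lower, where 10.19% and 9.64% of all genes were. With 1 mouse left out, the higher count was 8 without mouse 869 and 3 without mouse 830. The lower count was 1 without mouse 869, 89, 123 or 90 and 2 without mouse 118. The 5 higher over all mice included Cyp2a5, the coumarin hydroxylase, at 1346, 404, 1486 and 2292 CPM in the high series and 249.9, 480.0, 339 and 362 CPM in the low series. They also included its paralog Cyp2a4, which shares reads with it, at 378 to 804 CPM in the high series and 239.8 to 416 CPM in the low series. Mouse 869 again lay within the low range for Cyp2a5.

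**Figure D4:**
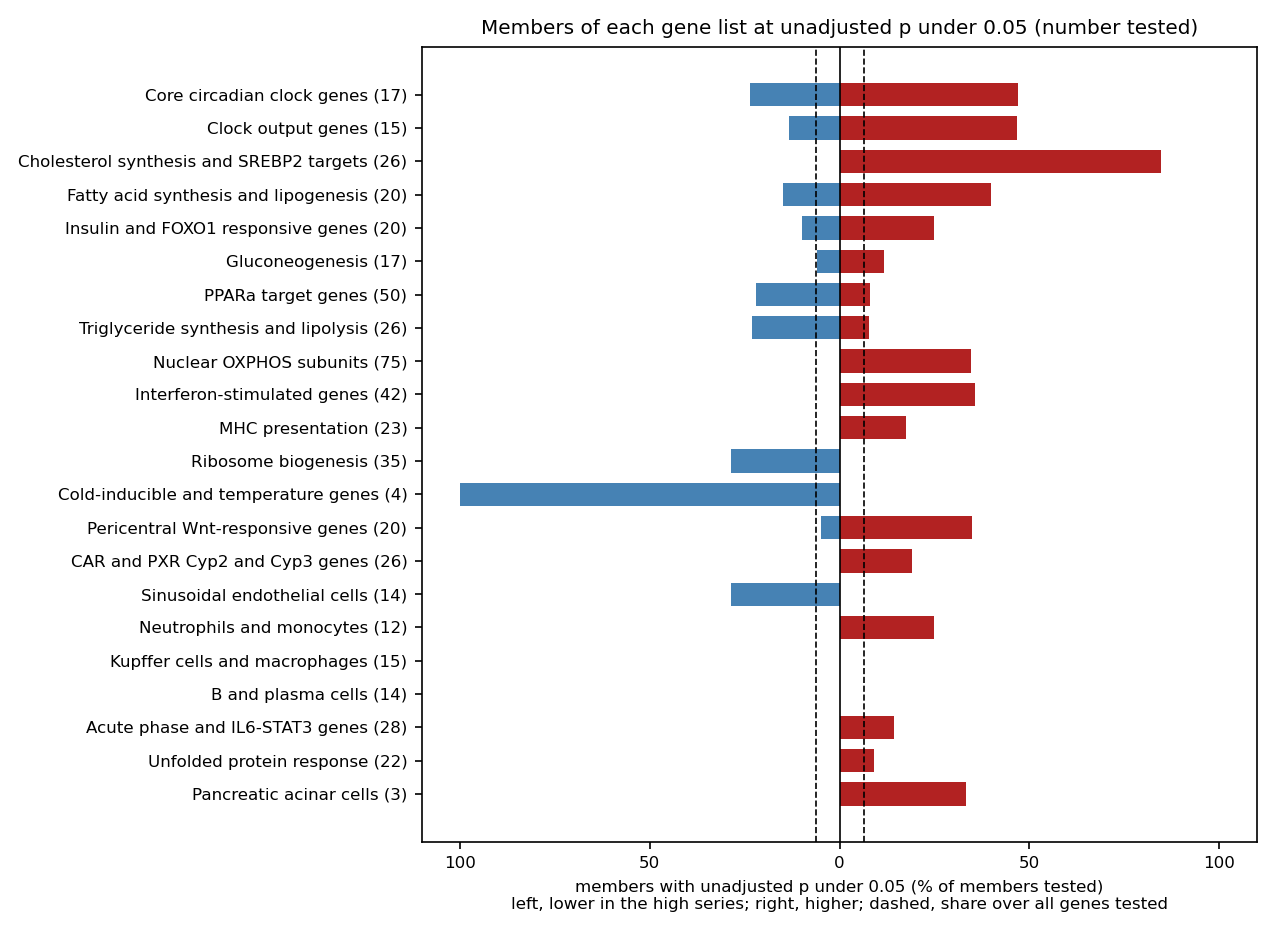
Share of the tested members of each described list (number in brackets) with an unadjusted p under 0.05, to the right where higher and to the left where lower in the high series. Dashed lines mark the shares over all 15482 genes, 6.39% and 6.1%; cholesterol synthesis reaches furthest to the right and the 4 temperature genes furthest to the left.

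Ranked over all genes, the 15 higher genes with the smallest p that did not overlap were all under an adjusted p of 0.1 in edgeR. Gamt, the last enzyme of creatine synthesis (chromosome 10, 80258151 to 80261012), had the smallest p of all, at 120.4, 114, 121 and 134 CPM in the high series and 72.2, 69.8, 78.4 and 74 CPM in the low series (log2 0.73 ± 0.08, edgeR adjusted p = 0.0680, DESeq2 adjusted p = 7.88e-13). Stbd1, a glycogen-binding protein, measured 103, 93.7, 101 and 87.4 CPM in the high series and 58.1, 61.3, 59.2 and 61.9 CPM in the low series, and Hamp2, a hepcidin paralog, 289, 181, 247 and 299 CPM in the high series and 113, 72.5, 118 and 92.3 CPM in the low series. The mice of each series lay close together in Gamt and Stbd1 and wider apart in Hamp2. Akr1c20, an aldo-keto reductase, differed by 0.65 ± 0.08, Tcea3, an elongation factor, by 1.01 ± 0.14, Acy1, an aminoacylase, by 0.83 ± 0.12 and Hes6, a HES-family factor, by 1.12 ± 0.16. The rest of the 15 included Dbp, Usp18, Apol9a, Apol9b, Vldlr, Nr1d2 and Mid1ip1.

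Of the 15 lower genes chosen in the same way, 7 were under an adjusted p of 0.1. Cdkn1a, the cell cycle inhibitor p21, which fasting and glucocorticoids induce in liver, measured 13.9, 14.97, 30.8 and 17.1 CPM in the high series and 41.9, 47.8, 54.4 and 58.6 CPM in the low series (log2 -1.43 ± 0.18, edgeR adjusted p = 0.0680). The tRNA ligase Tars measured 58.8, 74.3, 56.5 and 45.98 CPM in the high series and 101, 88.6, 96.8 and 89.5 CPM in the low series (log2 -0.69 ± 0.13). Both genes were lower in every high mouse, as the rule for these 15 genes requires. The ubiquitin ligases Rnf144a and Mid1 differed by -1.76 ± 0.29 and -0.91 ± 0.16, and Asap2, which overlaps Itgb1bp1 on the opposite strand, by -1.58 ± 0.26. Tab2, an adaptor of TAK1, differed by -0.65 ± 0.10 and Nlrp12, an innate immune receptor, by -0.79 ± 0.16. The other members, Lgalsl, Zfp655, Tmem56, Syt12 and Trappc8, had log2 differences of -0.94, -0.65, -0.57, -1.59 and -0.50, and Insig2 and Arntl are given above.

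Some lists had medians of opposite sign in the 2 genotypes, a difference tested gene by gene only. Of all genes, 46.6% had opposite signs of the series difference in WT and S155A mice. In the interaction test 10.8% of all genes had an unadjusted p under 0.05, and DESeq2 called 1.95%. For 28 acute phase and IL6-STAT3 genes the median was -0.55 in WT and 0.65 in S155A mice, 22 had an unadjusted interaction p under 0.05, and DESeq2 called 12. In WT mice alone 12 were lower and 0 higher at an unadjusted p under 0.05, and in S155A mice alone 17 were higher and 1 lower, beside 2.94% of all genes lower in WT and 10.19% higher in S155A mice. Series differences were above 0 in 5 of the 28 genes in WT mice and in 25 in S155A mice. Saa4, a constitutive serum amyloid, was above 0 in both and so departed from the WT median. It measured 215, 179, 392 and 576 CPM in the high series and 90.4, 170.3, 74.6 and 75.5 CPM in the low series, with every high mouse above every low mouse. The 22 genes of the unfolded protein response had medians of -0.28 and 0.80 in the same order, with 18 at an unadjusted interaction p under 0.05 and 12 called by DESeq2. Over all mice 2 of them, Herpud1 (log2 1.13 ± 0.35), a component of protein disposal at the endoplasmic reticulum, and the stress sensor Atf6, were higher at an unadjusted p under 0.05, 11 without mouse 869 or mouse 123, and 1 without mouse 856, 830, 831, 90 or 118. Of all genes, 7.49% were higher without mouse 869 and 7.36% without mouse 123. Over all mice 4 acute phase genes were higher, 1 without mouse 830, 831, 89, 90 or 118 and 7 without mouse 123, and 1 was lower without mouse 856 or 89, 2 without mouse 90 and 3 without mouse 830. Over all genes the median interaction was -0.01, and -0.16 with scaling by library size alone.

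**Figure D5:**
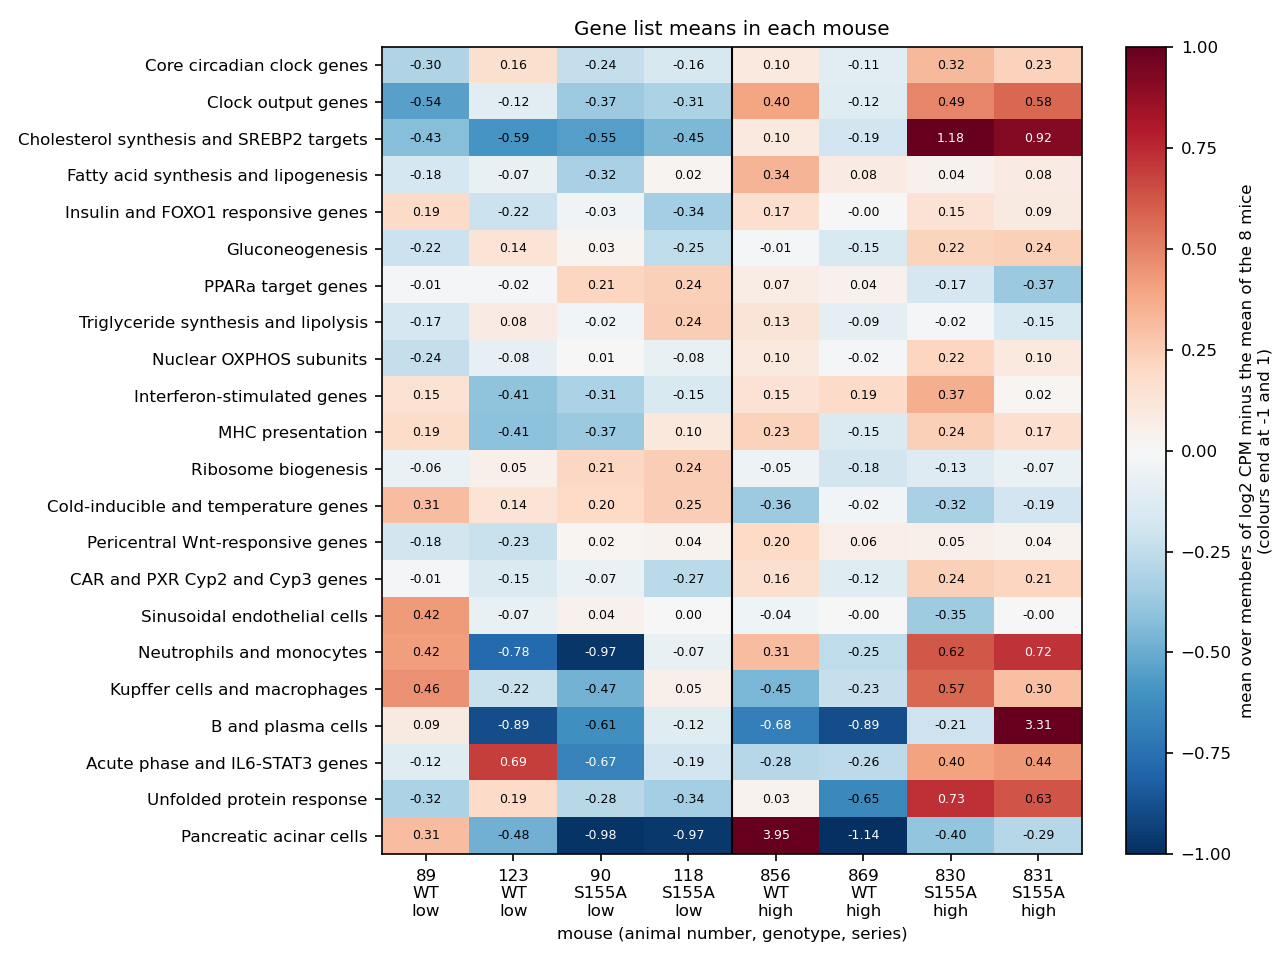
Mean over the members of each described list of log2 CPM minus the mean of the 8 mice, for each mouse, with low mice on the left and high mice on the right. Cholesterol synthesis is higher and the temperature genes are lower in all 4 high mice, and the B and plasma cell and acinar means are highest in mouse 831 and mouse 856.

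Among markers of other liver cells, those of the sinusoidal endothelium were the ones with most members lower, and in bulk tissue fewer cells of a type and less RNA per cell cannot be told apart. Of 14 sinusoidal endothelial markers, 4 (Stab2, Mrc1, Kdr and Tek) were lower and 0 higher at an unadjusted p under 0.05, 8 were lower without mouse 123, and 1 was higher without mouse 869, 89 or 90. DESeq2 called 3. Their sums were 275 to 343 CPM in the high and 314 to 420.3 CPM in the low series. Stab2, a scavenger receptor, measured 35.5, 34.9, 33.4 and 39.5 CPM in the high series and 54.2, 50.3, 45.9 and 45.3 CPM in the low series without overlap, whereas Lyve1, another defining marker, differed by 0.90 ± 0.44 in the other direction. The 15 macrophage markers had 0 higher and 0 lower, 2 higher without mouse 89, and medians of -0.47 in WT and 0.64 in S155A mice. Adgre1, the F4/80 antigen, measured 4.88, 5.14, 13.5 and 9.92 CPM in the high series and 12.5, 9.25, 5.86 and 6.60 CPM in the low series. Their sums overlapped, at 336 to 734 CPM in the high and 342 to 663 CPM in the low series. Their part in the acute phase values was not tested.

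Neutrophil and monocyte markers were scarce, summing to 12.6 to 23.5 CPM in the high and 8.65 to 16.7 CPM in the low series. Of 12 tested, 3 (S100a9, Retnlg and S100a8) were higher at an unadjusted p under 0.05, 0 without mouse 856, 830, 831, 123 or 90, 1 without mouse 118 and 6 without mouse 89. S100a9 differed by 1.06 ± 0.44 and S100a8 by 1.18 ± 0.52. B and plasma cell markers summed to 129.6 to 2433 CPM in the high and 162 to 204 CPM in the low series. Mouse 831 held the top, with Jchain at 1.21, 1.35, 1.78 and 73.6 CPM in the high series and 2.07, 1.32, 1.42 and 1.30 CPM in the low series and Mzb1 at 0.358, 0.232, 0.332 and 12.1 CPM in the high series and 0.256, 0.186, 0.178 and 0.371 CPM in the low series. The list's median was 1.04 with this mouse and -0.18 without it. Without mouse 831 the cholesterol genes had 20 of 26 and the core clock genes 7 and 4 of 17 at an unadjusted p under 0.05. Of 16 pancreatic acinar markers 3 were tested, and mouse 856 had the highest Cela2a, an elastase, over 9.47, 0.0421, 0.311 and 0.553 CPM in the high series and 0.237, 0.205, 0.0791 and 0.111 CPM in the low series. Adipocyte markers summed to 798 to 1202 CPM in the high and 494 to 794 CPM in the low series, without overlap. Most of that sum was Car3, a carbonic anhydrase that hepatocytes also express, at 711 to 1112 CPM in the high series and 333 to 676 CPM in the low series, while Adipoq, the defining adipocyte hormone, was at 0.0263 to 0.400 CPM in the high series and 0.0371 to 0.237 CPM in the low series (both named after their values were seen). Their part in the lipogenic values was not tested. Hepatocyte markers had 2 of 12 higher at an unadjusted p under 0.05, 0 without mouse 856 or 830, 1 without mouse 831, 89, 123 or 90 and 4 without mouse 869, and summed to 124221 to 168634 CPM in the high and 123347 to 144804 CPM in the low series.

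The other lists are given by their counts, to be set beside 6.39% higher and 6.1% lower of all genes. At an unadjusted p under 0.05, higher and lower members numbered 1 and 1 of 20 for mitochondrial fatty acid oxidation, 0 and 2 of 7 for ketone bodies and 2 and 4 of 32 for peroxisomes. For bile acids they numbered 4 and 3 of 24, for the growth hormone axis 0 and 1 of 15, and for glucocorticoid responsive genes 3 and 0 of 19. Immediate early genes, which respond to handling within minutes, had 2 and 2 of 26, and heat shock genes 3 and 0 of 19. The integrated stress response had 1 and 1 of 21, NRF2 and antioxidant genes 5 and 2 of 28, AHR targets 2 and 0 of 8 and phase II enzymes 3 and 1 of 25. Female-biased genes had 3 and 0 of 20, male-biased genes 0 and 1 of 15 and major urinary proteins, which are near-identical and share reads, 1 and 1 of 18. Proteasome subunits had 0 and 1 of 31, autophagy genes 3 and 2 of 26, amino acid catabolism 2 and 1 of 39, the methionine cycle 3 and 1 of 17 and heme and iron genes 2 and 0 of 23. Apolipoproteins had 2 and 1 of 24, hepatokines 3 and 1 of 15, inflammatory cytokines 2 and 0 of 25, complement and coagulation 3 and 1 of 32, the cell cycle 2 and 1 of 31 and periportal genes 1 and 2 of 18. Among cell markers, T and NK cells had 1 and 0 of 16, stellate cells 0 and 2 of 16, cholangiocytes 2 and 0 of 11, red blood cells 0 and 0 of 9, adipocytes 1 and 1 of 8, mesothelium 0 and 0 of 7 and skeletal muscle 0 and 0 of 1. Counts over all mice can hide opposite differences in the 2 genotypes. Medians in WT and S155A mice were -0.07 and 0.34 for amino acid catabolism, -0.18 and 0.52 for the methionine cycle and 0.23 and -0.92 for major urinary proteins. In these 3 lists 12 of 39, 9 of 17 and 9 of 18 members had an unadjusted interaction p under 0.05, against 10.8% of all genes. Medians of some other lists by genotype are given further on.

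Leaving out 1 mouse moved several of these counts, and the shares over all genes also moved, as given above for each mouse. Without WT mouse 123 the higher count was 8 for heat shock genes, 7 for amino acid catabolism and 6 each for peroxisomes and glucocorticoid responsive genes, and the lower count was 6 for immediate early genes and 5 for the growth hormone axis. Without WT mouse 869, 9 amino acid catabolism and 6 glucocorticoid responsive genes were higher and 6 major urinary proteins lower. Without WT mouse 89, 5 proteasome subunits and 4 major urinary proteins were lower. Heat shock genes had 1 higher without mouse 856, 830, 89 or 118, glucocorticoid responsive genes 1 without mouse 830 or 118, and amino acid catabolism 1 without mouse 830, 831, 89 or 118. NRF2 and antioxidant genes had 1 higher without mouse 856 and 2 without mouse 830, 89, 123 or 90. Without mouse 830, 1 peroxisome gene was lower, 3 stellate cell markers were higher and 0 complement and coagulation genes were higher, and 0 bile acid genes were lower without mouse 831 or 90. All other counts of these lists moved by at most 2 members, and no direction over all mice is given for any of them.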

How the data were processed

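Liver RNA of 8 fasted female mice was sequenced by the study from stranded poly(A) libraries. The authors deposited 1 table of estimated counts for genes, which by the title of the deposited table came from salmon and were scaled for transcript length, and the submitters' processing notes name STAR, SAMtools, bcl2fastq, MultiQC, DESeq2 and build GRCm38. The table holds 45706 gene identifiers, of which 45143 were found in GENCODE M21, the source of gene positions.

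Here the estimated counts were rounded, filtered with filterByExpr on series and genotype, scaled by TMM and fitted with edgeR 4.0.16 (R 4.3.3) as genotype plus series, over 15482 genes, with Benjamini-Hochberg adjustment. CPM values use TMM-scaled library sizes. DESeq2 1.42.0 and limma 3.58.1 were alternatives. The interaction compared the series difference in S155A with that in WT mice. The step was tested on simulated counts with known changes. Depth was 39709785 to 54540864 counts a library, and genes of low CPM carry counting error beside the spread between mice. Each mouse is 1 library, and the smallest chi-square per gene between 2 mice was 38.5, so no library was a repeat of another. That pair was 830 and 831, the 2 high S155A mice, and the next smallest value was 52.5, between mice 89 and 90. Mouse numbers come from the labels.

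Named genes were the 7 the study names, the 15 higher and 15 lower genes with the smallest p among genes of at least 1 CPM without overlap between series, and up to 6 members and the named regulators of each described list. Some genes that this rule selects are not reported here. The series, the lists of genes and these rules were chosen with earlier results of these data known. The list rule also left the 58 lists without any test of their own.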

Additional observations from a re-analysis of the deposited data

Results flagged for a closer look

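Among 119 genes and 22 lists, 282 groups of 4 mice were searched for a single mouse set apart, and 22 were found where chance gives about 14.1, 1 in 20 groups. In the high series mouse 869 stood alone in Hes6 (28.7 CPM, others 44.3 to 45.5), Mid1ip1 (16.4, others 23.9 to 24.3), Mid1 (6.61, others 5.00 to 5.06), Nampt (32.6, others 47.2 to 49.4) and Srsf5 (209.9, others 115 to 130.3). In each of these genes its value lay toward those of the low series. Mouse 830 stood above the other high mice in Plin5 (276 CPM, others 183 to 194) and Apol9b (173 CPM, others 149 to 152), and below them in the mean of sinusoidal endothelial markers (-0.35 relative log2 CPM, others -0.04 to -0.00).

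Mouse 831 stood above the other high mice in the plasma cell genes Jchain (73.6 CPM, others 1.21 to 1.78) and Mzb1 (12.1 CPM, others 0.232 to 0.358) and in the mean of B and plasma cell markers (3.31 relative log2 CPM, others -0.89 to -0.21), and below them in Nr1d1 (61.9 CPM, others 108 to 112). Mouse 856 was above the other high mice in Cela2a (9.47 CPM, others 0.0421 to 0.553) and in the means of acinar markers (3.95, others -1.14 to -0.29), lipogenic genes (0.34, others 0.04 to 0.08) and pericentral genes (0.20, others 0.04 to 0.06).

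In the low series mouse 89 was highest in Irs2 (34.1 CPM, others 6.23 to 10.2), the pseudokinase gene Trib1 (57.2 CPM, others 38.9 to 42.0), Mrc1 (27.0 CPM, others 18.99 to 20.2) and Jchain (2.07 CPM, others 1.30 to 1.42). Mouse 123 was highest in Saa4 (170.3 CPM, others 74.6 to 90.4) and in the mean of the unfolded protein response (0.19, others -0.34 to -0.28).

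In 7 lists both high mice of 1 genotype lay on the other side of the low mice from those of the other genotype, and this difference was not tested at the level of the list. The median log2 differences in S155A and in WT mice were -0.37 and 0.03 for PPARa targets, 0.63 and -0.15 for glucocorticoid responsive genes, 0.65 and -0.55 for acute phase genes and 0.26 and -0.14 for complement and coagulation. For periportal genes they were 0.38 and -0.20, for hepatocyte markers 0.39 and -0.09 and for macrophage markers 0.64 and -0.47.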

How the results depend on the processing

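The count of genes between series at an adjusted p under 0.05 was 0 with edgeR, 405 with DESeq2, 514 with no filter on low counts, 11 with no genotype block and 324 in the S155A mice alone. Leaving out each mouse in turn gave 0 to 104 genes, the 104 without WT mouse 869 (69 higher and 35 lower) and 1 each without mouse 830 or mouse 90. At an unadjusted p under 0.05 the count was 1934, with 895 in WT mice alone and 2936 in S155A mice alone. For the interaction the count was 0 with edgeR, 279 with DESeq2 and 4 with a replicate block, which uses the replicate numbers that WT and S155A mice share within a series. Without 1 mouse it was 0 to 19, with 19 without mouse 89, 6 without mouse 830 and 1 without mouse 869. No paired analysis was possible for the difference between series because high and low mice share no replicate number. The median of insulin and FOXO1 responsive genes, 0.04, was -0.0294 with library size alone, -0.112 in WT mice alone and as low as -0.0272 without 1 mouse (-0.0272 without mouse 830, -0.0245 without mouse 118, highest 0.22). Irs2 had a log2 difference of 0.96 in the S155A mice alone. The cause of these shifts was not tested. Where some mice were left out, the number of mice also fell, and its part was not tested either.

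The skeletal muscle list had no gene left at 1 CPM in 4 mice. Of 1159 list medians recomputed for 58 lists, 1125 moved by less than the spread between mice, and 78, in 32 lists, had the other sign. Of 2375 values for 119 named genes, 279 passed the threshold only in the alternative and 21, in 11 genes, had the other sign. Depth limits what can be seen for genes near 1 CPM.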
